A study of Bos taurus with 12 samples.

Results

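IRF7 (ENSBTAG00000047680) and SOCS1 (ENSBTAG00000004386) stand at opposite ends of the interferon response, and their transcripts were followed here in the peripheral white blood cells (PWBCs) of 12 beef heifers. Both were chosen by gene identifier, with earlier results of these libraries known, and make up 2 of the 27607 genes in the count table. Both are among the 13012 genes with enough counts to be tested. The animals were Simmental-Angus crossbred heifers whose estrus was synchronised before artificial insemination (AI), and blood was drawn from each of them 2 days before AI. Fertile heifers (n = 6, labelled Pregnant) conceived to the first AI, and subfertile heifers (n = 6, labelled Open) were still not pregnant after AI and about 60 days with bulls. Each heifer gave 1 library, so every replicate is a separate animal, and animals of both groups received the same synchronisation. The fertility class was assigned after the blood was taken. The reproductive tract score, a measure of pubertal maturity, was 5 in LM1247 (fertile) and LM1246 (subfertile) and 4 in every other heifer.

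Interferons are secreted when a cell senses viral or other foreign nucleic acid. Endosomal Toll-like receptors signal through MYD88 and IRAK1, and the cytosolic sensors RIGI and CGAS through their own adaptors, to kinases that phosphorylate IRF7, a transcription factor that then enters the nucleus and switches on the type I interferon genes. Secreted interferon binds receptors coupled to the Janus kinases JAK1 and TYK2, which phosphorylate STAT proteins, and these induce the interferon-stimulated genes, IRF7 among them. SOCS1 is induced by the same STAT signal and closes the loop, since its protein binds the Janus kinases, blocks them and directs them to degradation. Plasmacytoid dendritic cells, a rare blood cell type, hold IRF7 constitutively, while SOCS1 is best known for restraining interferon-gamma and interleukin signalling in T lymphocytes.

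Library totals ranged from 14010736 to 21278761 counts, and the most abundant gene held 1.82 to 7.40% of a library. PWBCs are a mixture, and T cell, B cell and monocyte markers were present in every library, while the neutrophil marker CXCR2 was at 0 in 1 fertile library and the plasmacytoid dendritic cell marker LILRA4 went down to 0.0606 CPM. The summed level of 4 T cell markers (CD2, CD3E, CD4, CD8A) was 694 to 1271 CPM (counts scaled to a common library size) in fertile and 603 to 1017 CPM in subfertile heifers, that of 2 B cell markers 367 to 750 and 395 to 714 CPM, and that of 4 monocyte markers 162 to 370 and 180 to 381 CPM. In whole-cell mixtures, fewer cells of a type and less RNA per cell cannot be told apart, which applies to every level given here. CPM is not scaled by gene length, so levels are compared between heifers and not between genes.

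IRF7, the activator, did not separate the fertility groups. Its level in fertile heifers was 36.0 CPM in LM1244, 56.6 in LM1330, 62.7 in LM1298, 73.9 in LM1247, 107 in LM1262 and 114 in LM1286. In subfertile heifers it was 42.5 CPM in LM1259, 50.5 in LM1246, 70.2 in LM1313, 82.9 in LM1251, 88.6 in LM1265 and 92.0 in LM1283. The lowest and the highest library of the study were both fertile, and all 6 subfertile levels lay within the fertile range, 2 of them below the fertile median of 68.3 CPM and 4 above it. Fertile heifers averaged 75.1 ± 30.3 CPM and subfertile heifers 71.1 ± 20.6 CPM (SD, n = 6 each). The log2 fold change (log2FC, subfertile against fertile) was -0.08 with a standard error (SE) of 0.27, the P of edgeR's quasi-likelihood test was 0.772 (adjusted P = 0.9998 over 13012 genes), and an exact two-sided permutation test of the group labels gave P = 0.929. The sign of so small a difference was not stable, as it ran from -0.22 without LM1244 to 0.08 without LM1286.

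IRF7 nevertheless varied widely from heifer to heifer. Its counts ran from 681 to 2312 per library, so counting error was small beside this spread: the exact 95% Poisson interval, which covers counting error only, was 33.3 to 38.8 CPM in LM1244 and 110 to 119 CPM in LM1286. The highest level was 3.18 times the lowest in fertile and 2.16 times in subfertile heifers. Within groups, the SD of log2 CPM was 0.55, against a median of 0.21 over the 500 genes nearest to IRF7 in abundance, and 97.6% of those genes varied less than IRF7.

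SOCS1, the inhibitor, had a lower mean in subfertile heifers, with a difference close to the limit that the spread between heifers sets. Its level in fertile heifers was 1.80 CPM in LM1244 (34 counts), 2.79 in LM1262 (46 counts), 4.05 in LM1330 (67 counts), 4.63 in LM1298 (96 counts), 4.96 in LM1247 (66 counts) and 7.91 in LM1286 (160 counts). In subfertile heifers it was 1.31 CPM in LM1259 (24 counts), 1.40 in LM1246 (30 counts), 1.79 in LM1251 (25 counts), 2.66 in LM1283 (46 counts), 2.80 in LM1313 (52 counts) and 5.05 in LM1265 (71 counts). Of the 6 subfertile levels, 5 were below the fertile median of 4.34 CPM and 3 below the lowest fertile library, while LM1265 was above all fertile heifers but LM1286. The group means were 4.35 ± 2.11 CPM (SD, n = 6) and 2.50 ± 1.40 CPM (SD, n = 6).

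**Figure D1:**
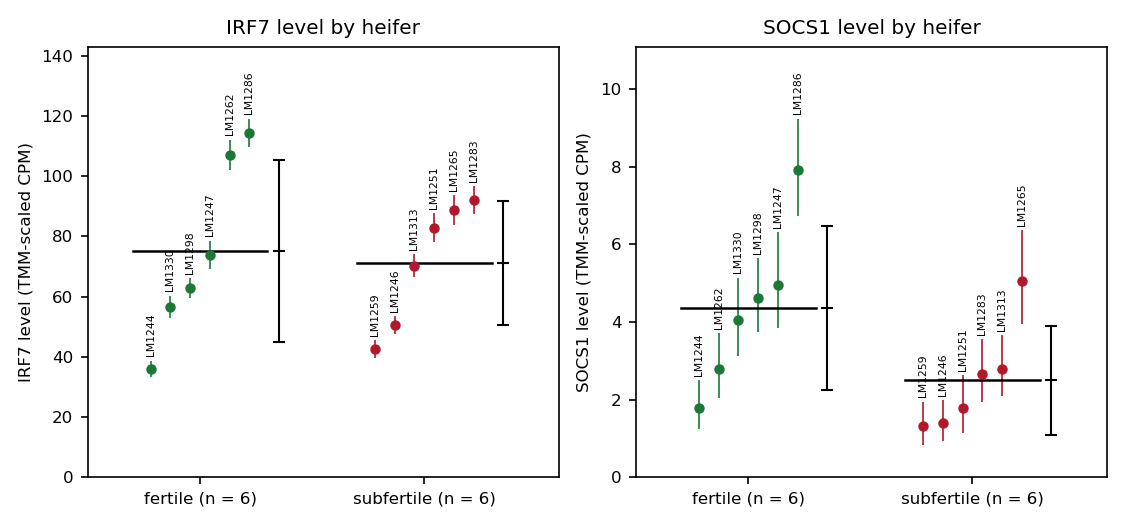
Levels of IRF7 (left) and SOCS1 (right) in CPM scaled by the trimmed mean of M-values (TMM), with 1 point per heifer, ordered by level within fertile (green) and subfertile (red) heifers. Thin bars are exact 95% Poisson intervals of the counts, the long black line is the group mean and the capped black bar the SD (n = 6). All 6 subfertile IRF7 levels lie within the fertile range, and 5 of 6 subfertile SOCS1 levels lie below the fertile median.

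SOCS1 was chosen with a difference in these libraries already known, so the tests below are no independent evidence of it. Its log2FC was -0.81 (SE 0.39) with edgeR, -0.82 with DESeq2 and -0.86 with limma and voom. The unadjusted P was 0.0600 with edgeR, 0.0408 with DESeq2, 0.0516 with voom and 0.0866 by the exact two-sided permutation test. Adjusted over all genes it was 0.9998 with edgeR and DESeq2 and 0.998 with voom. A gene was called differentially expressed at the study's thresholds, an unadjusted P of 0.05 or less and an absolute log2FC of 0.5 or more. By that rule edgeR called neither member, and called 1.40% of all genes (182 of 13012), 0.738% as lower and 0.661% as higher in subfertile heifers. DESeq2 called SOCS1 and not IRF7, where it called 1.77% of all genes (230) and 0.984% as lower. Voom called neither member and 1.10% of all genes (143). No gene passed an adjusted P of 0.05 with edgeR, DESeq2 or voom (0.00% each), although 2.62%, 3.20% and 2.30% of genes (341, 417 and 299) had an unadjusted P of 0.05 or less. An edgeR P as small as that of SOCS1 was found for 441 genes, 3.39% of those tested.

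The SOCS1 difference was negative in all 12 fits with a library left out, and its size depended on the pair of high libraries. It was -1.13 without the high subfertile library LM1265, where edgeR called it, and -0.55 without the high fertile library LM1286, where edgeR did not. SOCS1 was also called without LM1244 (-0.97) and without LM1262 (-0.91), so in 3 of 12 such fits. Depth limits these values, since the libraries held 24 to 160 SOCS1 counts. The exact 95% Poisson interval was 0.841 to 1.95 CPM in LM1259 and 6.73 to 9.23 CPM in LM1286. The within-group SD of log2 CPM was 0.71 against a median of 0.52 for the 500 genes of nearest abundance, so SOCS1 was less unusual in its spread than IRF7, with 74.6% of those genes varying less.

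**Figure D2:**
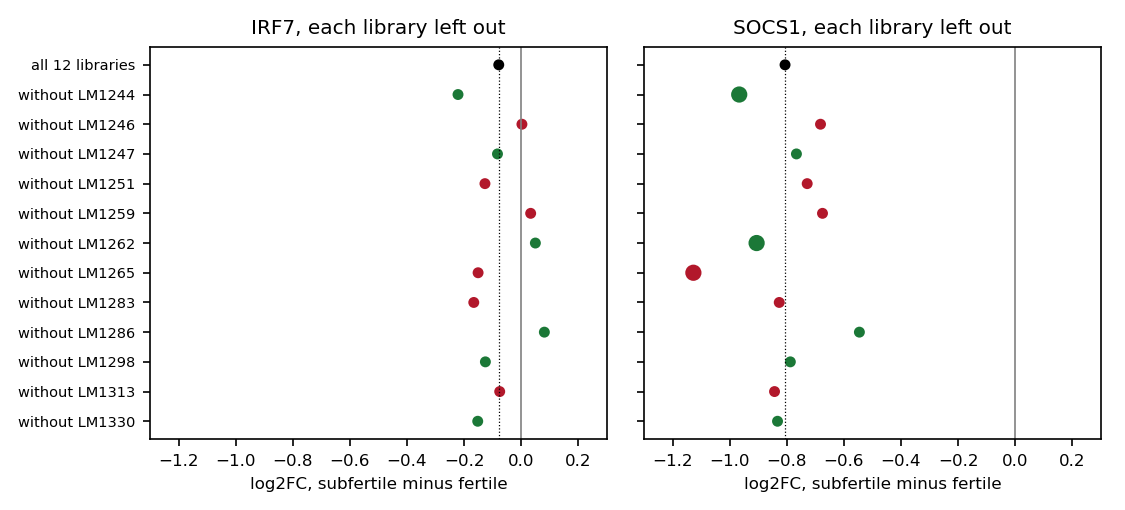
Log2FC of IRF7 (left) and SOCS1 (right) from edgeR with all 12 libraries (black) and after leaving out a fertile (green) or a subfertile library (red). Large points have an unadjusted P of 0.05 or less, the dotted line marks the value from all libraries and the solid line 0. IRF7 lies on both sides of 0, while SOCS1 runs from -1.13 to -0.55.

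The genes around both members were taken from lists of the interferon and Janus kinase pathways. Only 33 of their 160 genes had a name that could be matched to an identifier, and no interferon gene, no other interferon regulatory factor and no gene of the list of cytokines and their receptors was among them. None of the 33 was called by edgeR, with none at an unadjusted P of 0.05 or less, against 1.40% of all genes and 5.16% of the 2909 genes with a name, which are a selected subset. DESeq2 called 1, CMPK2, and voom none. The median log2FC of the 33 genes was 0.02, against 0.01 over all genes, with 14 below 0 and 19 above.

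Upstream of IRF7, 8 of 20 genes could be followed and their median log2FC was -0.00, with 4 below 0 and 4 above. STING1, the adaptor of the cytosolic DNA pathway, had the smallest P of this list, with 69.7, 97.8 and 113 CPM as the lowest, median and highest fertile level and 90.6, 117 and 123 CPM in subfertile heifers (log2FC 0.22, SE 0.12, edgeR P = 0.0852, exact permutation P = 0.0866). CGAS, the DNA sensor that feeds STING1, averaged 4.26 ± 0.82 CPM in the 6 fertile and 5.19 ± 1.52 CPM in the 6 subfertile animals (SD). Its log2FC was 0.29 (SE 0.22). MYD88, the adaptor of the endosomal receptors, had similar means of 152 ± 12.5 and 155 ± 20.2 CPM (SD, n = 6 each).

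Of the type I interferon-stimulated genes, 10 of 45 could be followed, and 5 had a log2FC below 0 and 5 above, with a median of -0.03. CMPK2, a mitochondrial nucleotide kinase induced by interferon, stood furthest from 0. Its lowest, median and highest levels were 8.08, 18.7 and 37.2 CPM in fertile and 7.69, 11.9 and 17.3 CPM in subfertile heifers, and all 6 subfertile levels were below the fertile median although the ranges overlapped. Its log2FC was -0.67 (SE 0.31, edgeR P = 0.0508, exact permutation P = 0.115), and it was called in 4 of the 12 fits with a library left out and at -0.38 without LM1330. STAT2, which carries the type I interferon signal to the nucleus, had a log2FC of -0.33 (SE 0.28) that rested on a single fertile library, LM1244, at 368 CPM against 124 CPM in the next fertile heifer. Without LM1244 the STAT2 log2FC was 0.14. LM1244 held the lowest IRF7 level of the study. The antiviral genes IFI44L (0.04), EIF2AK2 (0.07), SAMD9 (0.19) and ADAR (0.03) were not called, with log2FC values closer to 0 than that of STAT2.

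Among the receptors, kinases and STATs, 6 of 17 genes could be followed, with a median log2FC of 0.04. JAK1 and TYK2, the kinases that SOCS1 binds, had log2FC values of -0.10 (SE 0.10) and 0.02 (SE 0.10). IFNAR2, a chain of the type I receptor, was at 0.06 (SE 0.08), and IFNGR1, a chain of the interferon-gamma receptor, at 0.06 (SE 0.11). The other inhibitors of this pathway, 5 of 18 followed, had a median log2FC of -0.08 and 4 of them were below 0. SOCS5, of the same family as SOCS1, had means of 17.1 ± 3.22 and 17.0 ± 6.20 CPM (SD, 6 fertile and 6 subfertile heifers). PIAS2, which inhibits STAT proteins, was at -0.24 (SE 0.16, edgeR P = 0.154, exact permutation P = 0.208).

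Genes induced by interferon-gamma or by other STAT signals are the readouts that SOCS1 restrains. CXCL10, a chemokine induced by interferon-gamma, had a lowest, median and highest level of 4.42, 10.1 and 14.7 CPM in fertile and 7.00, 12.3 and 31.3 CPM in subfertile heifers (log2FC 0.56, SE 0.36, edgeR P = 0.145, exact permutation P = 0.251), and the log2FC was 0.17 without the subfertile library LM1259. TAP1 and TAP2, which carry peptides to MHC class I, were at 0.01 (SE 0.09) and 0.06 (SE 0.10), and TAPBP, which couples that transporter to MHC class I, at -0.17 (SE 0.14). Of the STAT-induced genes followed, PIM1 was at -0.23 (SE 0.18), BCL6 at 0.07 (SE 0.22) and MYC at 0.12 (SE 0.10).

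**Figure D3:**
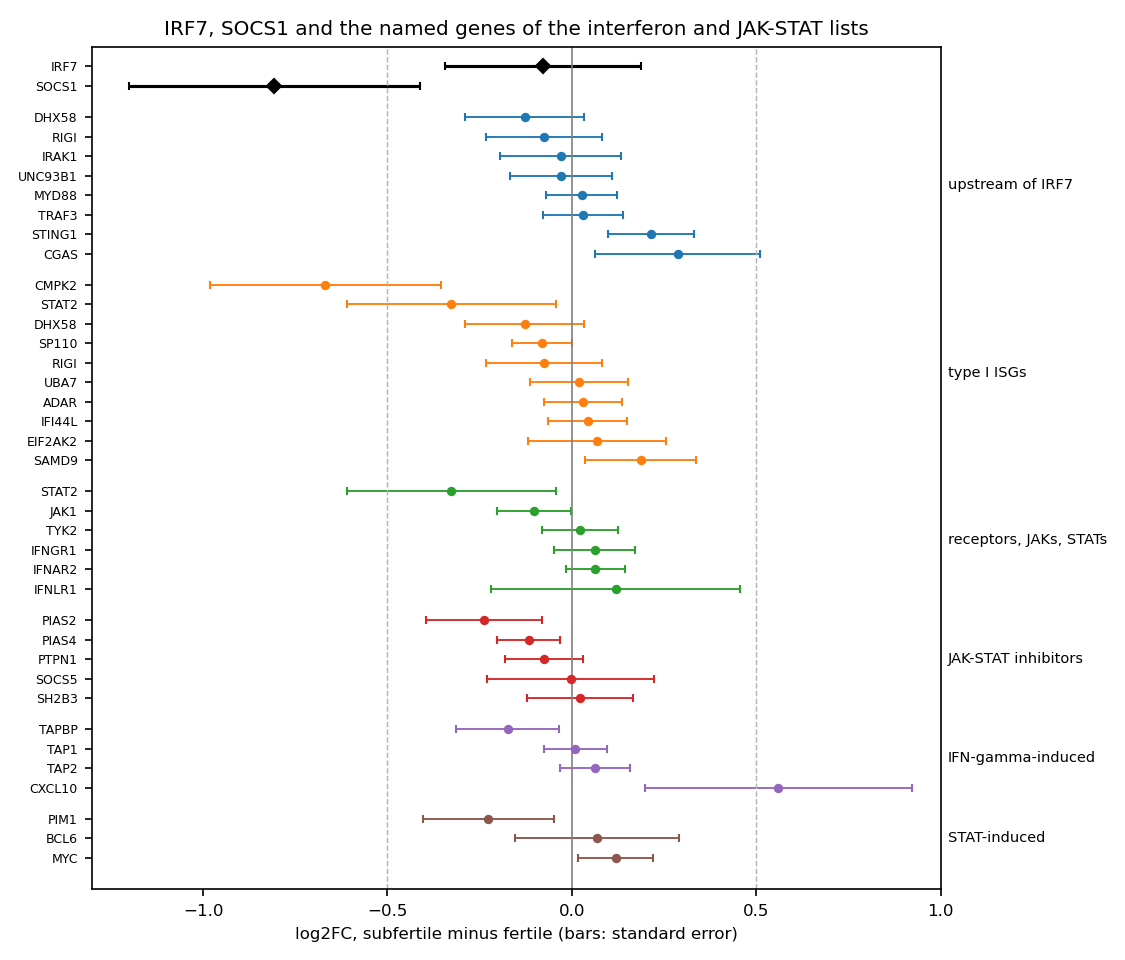
Log2FC from edgeR (subfertile against fertile, bars are SE) of IRF7 and SOCS1 (black diamonds) and of the 33 named pathway genes (circles, coloured by list; RIGI, DHX58 and STAT2 stand in more than 1 list). Dashed lines mark a log2FC of -0.5 and 0.5. SOCS1 and CMPK2 lie left of -0.5 and CXCL10 right of 0.5, and the other pathway genes lie between the dashed lines.

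Across all 12 heifers, IRF7 and SOCS1 tended to be high in the same animals, with Pearson r = 0.601 (permutation P = 0.0398) and Spearman rho = 0.538 (permutation P = 0.0748) of log2 CPM. LM1286 was the highest library for both genes, and LM1244, LM1246 and LM1259 were among the 4 lowest for both. Adjusted over the 67 relations computed (these genes with each other and each with the 33 pathway genes), P was 0.180 for r. Without LM1259 and LM1286, the libraries farthest from the median of SOCS1, r was 0.347, over a narrower range of SOCS1 levels, and without either of them alone it was 0.509 and 0.479. In each relation below, the 2 farthest libraries are those of the gene or measure set against IRF7 or SOCS1, so the pair differs from one relation to the next. Within groups r was 0.643 in fertile (exact permutation P = 0.160, n = 6) and 0.758 in subfertile heifers (exact permutation P = 0.0861, n = 6).

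None of the 67 relations passed an adjusted P of 0.05 (the smallest was 0.173 for r and 0.0710 for rho), and 18 had an unadjusted P for r of 0.05 or less, 12 with IRF7 and 6 with SOCS1. The weakest of those 12 had an absolute r of 0.558, which 26.1% of all genes reached with IRF7, and the weakest of those 6 one of 0.603, which 17.4% of all genes reached with SOCS1. With IRF7 the weakest was STAT2 (r = -0.558, rho = -0.462), whose r went as near to 0 as -0.0647 with a library left out. Over the upstream list, 7 of 8 genes had an r above 0 with IRF7, with a median of 0.339 against 0.0317 over all genes. MYD88 was highest (r = 0.739, permutation P = 0.00612; rho = 0.776, permutation P = 0.00460), at 0.777 without the 2 farthest libraries, 0.808 in fertile and 0.784 in subfertile heifers. The interferon-stimulated genes showed no common direction with IRF7, with 5 of 10 above 0 and a median r of -0.124. Of the 5 inhibitors followed beside SOCS1, out of 18 listed, 4 had an r below 0 with IRF7 (median -0.597), as did 48.2% of all genes. PIAS4, which inhibits STAT proteins, was at 0.266, and SOCS1 itself at 0.601. By r, the lowest was SH2B3, an adaptor that restrains Janus kinase signalling (r = -0.709, permutation P = 0.00893; rho = -0.601, permutation P = 0.0421), which was at -0.592 without the 2 farthest libraries. By rank, SOCS5 (rho = -0.790, permutation P = 0.00335) and PIAS2 (rho = -0.776, permutation P = 0.00409) were lower, with r = -0.590 and r = -0.664. BCL6, a transcriptional repressor induced by STAT signals, had r = 0.696 with IRF7 (permutation P = 0.0137; rho = 0.762, permutation P = 0.00530) and r = 0.597 without the 2 farthest, while the other STAT-induced genes followed, PIM1 (-0.139) and MYC (-0.125), had an r below 0.

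SOCS1 had its highest r among pathway genes with UBA7, the enzyme that activates ISG15 for conjugation (r = 0.697, permutation P = 0.00888; rho = 0.790, permutation P = 0.00355). It was 0.612 without the 2 farthest libraries, 0.905 in fertile and 0.777 in subfertile heifers. DHX58, an interferon-induced relative of RIGI, had r = 0.658 (permutation P = 0.0132; rho = 0.462, permutation P = 0.135), with 0.938 in fertile and 0.225 in subfertile heifers. The difference between these groups was not tested. SAMD9, an antiviral gene of the same list, lay on the other side (r = -0.603, permutation P = 0.0384; rho = -0.517, permutation P = 0.0891; -0.520 without the 2 farthest libraries). Over the 10 interferon-stimulated genes, 5 had an r above 0 with SOCS1 and the median was -0.0453. CMPK2, the gene nearest to a call, had r = 0.622 (permutation P = 0.0316; rho = 0.664, permutation P = 0.0216) and r = 0.605 without the 2 farthest libraries.

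Markers of cell types were also set beside both genes. The lists held 6 to 10 genes each, of which 2 to 4 could be followed (0 of 8 for erythroid cells). Over 44 relations of both genes with 22 markers, none passed an adjusted P of 0.05, and the smallest was 0.0889 for r and 0.103 for rho. PRF1, which encodes the pore-forming protein of cytotoxic lymphocytes, had r = 0.772 with SOCS1 (permutation P = 0.00346; rho = 0.790, permutation P = 0.00311) and r = 0.9004 without the 2 farthest libraries. GZMB, a granzyme of the same cells, had r = 0.318 (permutation P = 0.314; rho = 0.126, permutation P = 0.701), at -0.0326 without the 2 farthest libraries and -0.256 in subfertile heifers. CD2, a T cell and NK cell adhesion molecule, had r = 0.753 (permutation P = 0.00606; rho = 0.776, permutation P = 0.00467) and r = 0.760 without the 2 farthest. All 4 T cell markers had an r above 0 with SOCS1 (median 0.656), as did all 4 platelet markers (median 0.635), against a median of 0.0177 over all genes, 48.7% of which were below 0. Both cytotoxic markers (median 0.545), both B cell markers (median 0.378) and both neutrophil markers (median 0.109) were above 0 too. So were 2 of 4 monocyte markers (median 0.00803) and 1 of 2 plasmacytoid dendritic cell markers (median -0.0583). Both proliferation markers had an r below 0 with SOCS1 (median -0.373). A negative log2FC, as for SOCS1, was found for all 4 T cell markers (median -0.20), all 4 platelet markers (median -1.05), both B cell markers (median -0.33) and both cytotoxic markers (median -0.70), as for 6271 of all 13012 genes. Without the fertile library LM1330 the platelet values shrank to -0.33 for GP9, -0.21 for ITGB3, -0.68 for F2RL3 and 0.01 for ITGA2B. Of the monocyte markers 1 of 4 was below 0 (median 0.07), of the neutrophil markers 0 of 2 (median 0.18), of the plasmacytoid dendritic cell markers 1 of 2 and of the proliferation markers 0 of 2 (median 0.66). EdgeR called 3 of the 22 markers, against 1.40% of all genes and 5.16% of the genes with a name. These were GZMB at -1.004 (SE 0.45, edgeR P = 0.0432, exact permutation P = 0.180), PAX5, a B cell transcription factor, at -0.51 (SE 0.24, edgeR P = 0.0487, exact permutation P = 0.0519), and TOP2A, a topoisomerase of dividing cells, at 0.84 (SE 0.39, edgeR P = 0.0462, exact permutation P = 0.169). Each was called in 4 or 5 of the 12 fits with a library left out, and TOP2A, at 148 CPM in the subfertile library LM1259, was at 0.17 without it, while GZMB was at -0.66 without LM1247. The summed level of the 2 cytotoxic markers was 70.9 to 158 CPM in fertile and 70.8 to 111 CPM in subfertile heifers, and that of the 4 platelet markers 172 to 2225 and 179 to 653 CPM. Their part in the SOCS1 difference was not tested.

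With IRF7, the r of markers of the same cell type differed in sign among T cell, cytotoxic, B cell and monocyte markers. CD3E (0.535), CD2 (0.420) and CD4 (0.271), markers of T cells, were above 0 and CD8A (-0.289) was below. PRF1 was at 0.239 and GZMB at -0.161. Of the B cell markers, CD79A had r = 0.609 (permutation P = 0.0366; rho = 0.622, permutation P = 0.0348; 0.282 without the 2 farthest libraries) and PAX5 r = -0.328 (permutation P = 0.297; rho = -0.343, permutation P = 0.273). Of the monocyte markers, CD68 had r = 0.583 (permutation P = 0.0468; rho = 0.699, permutation P = 0.0146; 0.592 without the 2 farthest), VCAN 0.0702 and CTSS -0.0950. The neutrophil markers were both above 0, S100A9 at r = 0.550 (permutation P = 0.0632; rho = 0.650, permutation P = 0.0248; 0.558 without the 2 farthest) and CXCR2 at r = 0.484 (permutation P = 0.111; rho = 0.608, permutation P = 0.0396; 0.629 without the 2 farthest). All 4 platelet markers had an r above 0 with IRF7 as well (median 0.435, from 0.367 to 0.443), while both proliferation markers were below 0 (median -0.273). Neither of the 2 markers of plasmacytoid dendritic cells that could be measured had an r above 0 with IRF7. TCF4, the transcription factor that specifies these cells and is also present in B cells, had r = -0.717 with IRF7 (permutation P = 0.00860; rho = -0.685, permutation P = 0.0168), and -0.617 without the 2 farthest libraries. LILRA4, a receptor of these cells, averaged 2.75 ± 3.25 CPM over fertile and 1.11 ± 1.31 CPM over subfertile animals (SD, n = 6 each). Its r with IRF7 was -0.0917 (permutation P = 0.773; rho = -0.140, permutation P = 0.668), at 0.0945 without the 2 farthest libraries.

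Measures of the libraries themselves were compared in the same way. IRF7 had r = -0.635 with the TMM scaling factor (permutation P = 0.0283; rho = -0.720, permutation P = 0.0103; -0.419 without the 2 farthest libraries), with -0.440 in fertile and -0.885 in subfertile heifers. The levels of both genes are themselves divided by this factor, and the permutation test does not allow for that shared term. SOCS1 had r = 0.651 with the first principal component of all other genes (permutation P = 0.0205; rho = 0.559, permutation P = 0.0624; 0.640 without the 2 farthest libraries). Computed with both members included, the first component held 23.1% of the variance. The sign of the component was set so that its r with IRF7 is above 0. With the component of all other genes IRF7 had r = 0.492 (permutation P = 0.102, 0.819 without the 2 farthest libraries), with 0.273 in fertile and 0.872 in subfertile heifers. Its r with the share of the most abundant gene was 0.534 (permutation P = 0.0767), with 0.289 in fertile and 0.874 in subfertile heifers. For SOCS1, r was 0.150 with that share and -0.411 with the TMM factor. Whether these measures bear on the IRF7 connections given below was not tested. Adjusted over these 6 relations, the smallest P for r was 0.0848. With the first principal component in the edgeR model the SOCS1 log2FC was -0.60 and that of IRF7 0.05, and neither gene was called. LM1244, LM1246 and LM1259, among the 4 lowest libraries for both genes, stood apart in these measures. They were at -38.3, -50.4 and -28.0 on that component, where every other library was above 0. Their TMM factors (1.10, 1.11 and 1.08) were the highest of the study.

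The genes whose pattern over the 12 heifers was most like each member were ranked by the r of log2 CPM among 2904 named genes, and no P is given because they were picked for their r. Closest to IRF7 were MED10, a Mediator subunit (r = 0.916, rho = 0.923), FAM89B (r = 0.904, rho = 0.902), ZFP36, which promotes decay of cytokine mRNAs (r = 0.895, rho = 0.930), PHF1, a Polycomb-associated protein (r = 0.893, rho = 0.916), and MGAT4B, a glycosyltransferase (r = 0.878, rho = 0.860). MED10 ran only from 28.2 CPM in LM1246 to 37.6 CPM in LM1262, so it shared the order of IRF7 with a far smaller range. ZFP36 was at r = 0.952 in fertile and 0.971 in subfertile heifers. The lowest r belonged to CNTRL, a centrosomal protein (r = -0.906, rho = -0.916), and PHTF2 (r = -0.894, rho = -0.888). CNTRL was highest, at 36.5 and 35.9 CPM, in LM1244 and LM1246, which held the lowest and the third lowest IRF7. None of these genes was called between the fertility groups. Over all genes, 5.06% had an r of 0.7 or more with IRF7 and 5.30% an r of -0.7 or less.

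Closest to SOCS1 were S1PR5, a sphingosine-1-phosphate receptor that guides NK cells out of tissues (r = 0.928, rho = 0.923), DLGAP4 (r = 0.893, rho = 0.881), MARK4, a microtubule-affinity kinase (r = 0.881, rho = 0.867), HAUS7, a subunit of the augmin complex (r = 0.814, rho = 0.811), and CBS, an enzyme of homocysteine metabolism (r = 0.812, rho = 0.881). S1PR5 had its 4 lowest levels, 18.6 to 21.8 CPM, in LM1259, LM1251, LM1244 and LM1246, the same heifers that held the 4 lowest SOCS1 levels. Fertile heifers averaged 33.0 ± 8.51 CPM of S1PR5 and subfertile heifers 26.0 ± 7.40 CPM (SD, n = 6 each). CBS had r = 0.532 over fertile and 0.995 over subfertile animals. That contrast was not tested. Opposite to SOCS1 were GUF1, a mitochondrial translation factor (r = -0.935, rho = -0.923), PPP1R21 (r = -0.874, rho = -0.853) and TFB2M, a mitochondrial transcription factor (r = -0.864, rho = -0.909). GUF1 averaged 37.8 ± 7.38 CPM over fertile and 49.9 ± 11.5 CPM over subfertile animals (SD, n = 6 each), a log2FC of 0.40 (SE 0.17) that is below the fold limit (edgeR P = 0.0313, exact permutation P = 0.0779). It was picked for its r with SOCS1, a gene chosen with its difference known, so these P values are no independent evidence. Over all genes, 3.22% had an r of 0.7 or more with SOCS1 and 3.65% an r of -0.7 or less.

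**Figure D4:**
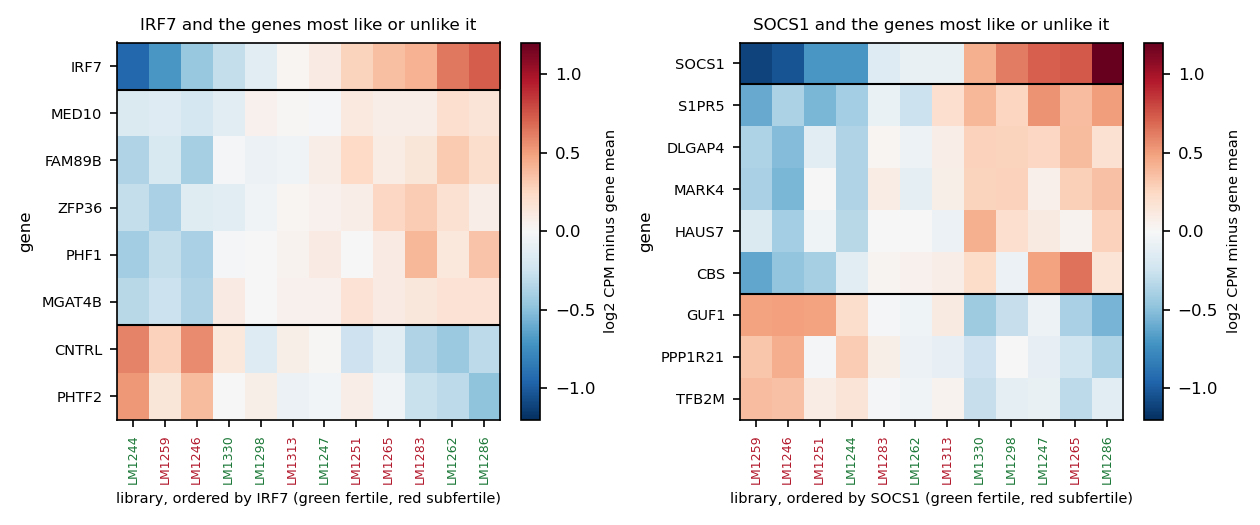
Log2 CPM minus the mean of each gene over 12 heifers, for IRF7 (left) and SOCS1 (right), the 5 named genes with the highest r (middle rows) and named genes with the lowest r (bottom rows). Libraries are ordered by the level of the member, with fertile names in green and subfertile names in red. MED10 follows IRF7 with a smaller range, and the 4 libraries with the lowest SOCS1 are also the 4 lowest for S1PR5.

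The study built a co-expression network in each fertility group, and the connections of both members were counted here at its correlation limit. A connection was a gene with an absolute r of 0.95 or more with the member over the 6 heifers of a group. The study also applied a partial correlation step and kept pairs with a differentially expressed gene or a predicted regulator. Neither step was applied here, so these counts are not the study's connections. IRF7 had 94 connections in fertile heifers (52 positive and 42 negative) and 332 in subfertile heifers (159 positive and 173 negative), against a median over all genes of 56.0 and 61.5. The difference of 238 had an exact two-sided permutation P of 0.0346, and 16 of 462 label arrangements gave one as large. A difference at least as large in either direction was found for 11.2% of all genes (1458 of 13012). It stayed positive in all 36 combinations with 1 library left out of each group, from 56 to 731. With an absolute r of 0.90 as the limit the difference was 683 and the exact permutation P 0.0758. IRF7 was chosen with network results of these libraries known, so this is no independent evidence.

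The groups had 3 connections in common, 3.19% of the fertile and 0.904% of the subfertile ones, and all 3 had the same sign in both. Little sharing was usual at this limit, since the median over all genes was 0 and 59.0% of genes had no connection in common. These were ZFP36 (r = 0.957 in fertile and 0.971 in subfertile heifers, on the variance-stabilized scale) and 2 genes without a name here, ENSBTAG00000004850 (-0.968 and -0.981) and ENSBTAG00000047834 (-0.979 and -0.954), named after their values were seen. The fertile connections had a median absolute r of 0.661 in subfertile heifers, and the subfertile connections one of 0.461 in fertile heifers.

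SOCS1 had 48 connections in fertile heifers (25 positive and 23 negative) and 59 in subfertile heifers (30 positive and 29 negative), with 0 in common, as for 59.0% of all genes. The difference of 11 had an exact two-sided permutation P of 0.907, and 82.4% of all genes had a difference at least as large in either direction. It was positive in 25 of the 36 combinations with 1 library left out of each group, from -120 to 180.

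**Figure D5:**
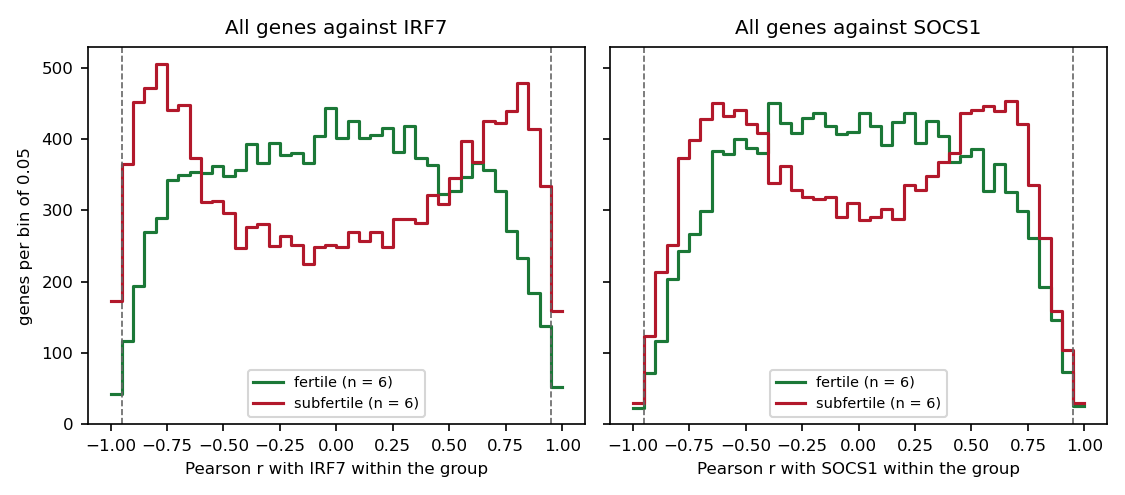
Number of genes per 0.05 of Pearson r with IRF7 (left) and SOCS1 (right) on variance-stabilized counts, within fertile (green) and subfertile (red) heifers (n = 6 each). Dashed lines mark the limit of 0.95 in either direction. Beyond these lines lie 94 fertile and 332 subfertile connections of IRF7, and 48 and 59 of SOCS1.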

How the data were processed

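The authors made stranded poly(A) libraries from PWBC RNA isolated as 1 batch, mapped reads to ARS-UCD 1.3 with STAR 2.7.5 (version from the submitters' processing notes) and deposited raw read counts per Ensembl gene, without normalization. The strand column taken from STAR is not given in the sources used here. Genes were kept with filterByExpr (minimum count 10), which left 99.9% of each library's counts. TMM scaling and edgeR 4.0.16 (R 4.3.3) with group as the only term gave log2FC and P, with Benjamini-Hochberg adjustment. The SE given with an edgeR log2FC is the absolute log2FC divided by the square root of the quasi-likelihood F statistic. The study used DESeq2. DESeq2 1.42.0, limma 3.58.1 with voom, other scalings, filters and covariates, and each library left out were alternatives. Log2 CPM used a prior count of 2. Single values were tested over all 462 equal splits (smallest possible P 0.00216), and correlations with 100000 permutations, or all 720 pairings within a group of 6.

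The members and lists were chosen with earlier results of these data known. Gene names came from identifier and symbol pairs in the study's supplementary tables (2911 identifiers), which favour genes selected by the study. Of the gene pairs planned for correlation, IRF7 with SOCS1 could be named; the other planned partners could not, and every named pathway gene took their place. Named genes were the members, the genes of correlation pairs, genes called or up to 4 with the smallest edgeR P in each list, and the 5 most and 3 least correlated named genes. The scripts were tested on simulated data. No sequence is printed, and 1 of the least correlated genes is not reported here.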

Additional observations from a re-analysis of the deposited data

Results flagged for a closer look

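Within groups of 6 heifers, 6 of 102 groups of values tested (5.88%) held a library far from the others by Dixon's ratio, the gap to the nearest library over the whole range of log2 CPM (limit 0.625). Chance flags about 1 in 20. None of them was IRF7 or SOCS1. LM1244 was apart in 3 genes of the fertile group: STAT2 was highest there (ratio 0.780, 368 against 124 CPM), and UBA7 (0.626, 68.7 against 90.3 CPM) and MGAT4B (0.654, 134 against 169 CPM) were lowest. In the subfertile group, LM1283 was highest for DHX58 (0.681, 56.8 against 46.9 CPM) and UNC93B1 (0.677, 417 against 298 CPM), and LM1259 was lowest for TYK2 (0.701, 115 against 150 CPM).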

How the results depend on the processing

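The IRF7 log2FC stayed outside the threshold in every fit and lay between -0.22 and 0.08 with a library left out. Its sign reversed without LM1246 (0.0029), LM1259 (0.034), LM1262 (0.050) or LM1286 (0.082), and with the first principal component in the model (0.046), an alternative chosen after seeing the data. The SOCS1 log2FC was negative in every fit, from -1.13 to -0.55 with a library left out. It passed the thresholds without LM1244 (-0.97), LM1262 (-0.91) or LM1265 (-1.13), with DESeq2 (-0.82) and with library size alone (-0.83), and the cause was not tested. SOCS1 has no value under the filter of at least 10 CPM in 9 libraries, which removes it. The count of genes called was 624 with every gene of at least 1 count and 37 under the stricter filter, which test more and fewer genes, and 118 (without LM1330) to 365 (without LM1244) with a library left out, against 182. The count of pathway genes called was 0 or 1 throughout. It was 1 with DESeq2, with every gene of at least 1 count, with the reproductive tract score in the model and without LM1244, LM1251, LM1262 or LM1313 (CMPK2 each time), and with the share of the most abundant gene in the model (CXCL10, chosen after seeing the data). The r of IRF7 with SOCS1 was 0.479 to 0.681 with a library left out, missed an unadjusted P of 0.05 without LM1244 (0.561), LM1246 (0.557), LM1259 (0.509), LM1265 (0.575), LM1286 (0.479) or LM1313 (0.602), and was 0.584 on variance-stabilized counts and 0.685 on deviations from the group means. The IRF7 difference in connections was 683 (exact permutation P = 0.0758) at an absolute r of 0.90. With a library left out, 5 heifers are set against 6, so the counts are not on 1 scale. The difference then ran from -148 (without LM1330) to 810 for IRF7 and from -217 to 256 for SOCS1, where it reversed without each fertile library (-65, -103, -217, -67, -125 and -181). No paired analysis was made, since every library came from a different heifer and the labels give no pairing between the groups.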
